A study of Mus musculus with 14 samples.

Results

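The matrix proteases and their inhibitors are the secreted or cell-surface enzymes that cut extracellular matrix, and the proteins that block them. They were taken here as every gene whose symbol in the deposited count table is Mmp, Adamts or Timp followed by a number, with an optional letter after an Mmp number. This rule found 42 of the 23331 genes in the table, namely 20 Mmp genes, 18 Adamts genes and 4 Timp genes. Of these, 30 reached at least 1 CPM (the reads of a gene scaled to a common library size) in at least 3 of the 14 libraries and were tested, 13 Mmp, 14 Adamts and 3 Timp genes.

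Each library came from clones of marrow stromal cells, grown from femora and tibiae of adult C57Bl/6 mice that carry the irtTA-GBD*-TAg transgene. In this system dexamethasone (Dex) and doxycycline (Dox) together switch on Large T-antigen, which lets the cells grow without limit, and all 14 libraries are from cells kept for 3 days without Dex and Dox. The clones had been sorted by what they could become in culture. Tripotent clones (OAC) formed bone, fat and cartilage cells, bipotent clones (OA) formed bone and fat cells, and unipotent clones formed bone cells (O) or fat cells (A), with 3 libraries in each of these 4 groups. A bone and cartilage library (OC3) and a fat and cartilage library (AC3) have no replicate. Libraries numbered 1 or 2 hold 1 clone each, the 2 clones of a group coming from different animals, whereas those numbered 3 combine further clones of these 2 mice. The p-values therefore cover the spread between clones of very few animals. The cells grew in plastic dishes after conditional immortalisation, and the potency of a clone was scored in a separate differentiation assay.

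Matrix metalloproteinases (MMPs) are zinc enzymes made as inactive precursors, and they cut collagens, gelatin, proteoglycans and other matrix proteins at the cell surface and in the surrounding matrix. ADAMTS enzymes are secreted relatives that trim procollagens or cut large proteoglycans such as aggrecan and versican. Tissue inhibitors of metalloproteinases (TIMPs) bind the active site of these enzymes, and in bone the balance of both sides takes part in matrix turnover, growth plate remodelling and the release of stored growth factors.

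Part of the MMP family lies in a row on mouse chromosome 9. In the RefSeq gene order 10 Mmp genes neighbour each other there (Mmp13, Mmp12, Mmp1b, Mmp3, Mmp1a, Mmp10, Mmp8, Mmp27, Mmp20 and Mmp7), of which 7 are in the count table and only Mmp13 and Mmp3 reached the level for testing. The promoter windows of both, and of their barely detected neighbours Mmp10 and Mmp8, are shown because neighbouring genes of 1 cluster differed this much in level. Each window runs from 250 bases before to 50 bases after the transcription start, from RefSeq on build GRCm38.p6, written 5′ to 3′ on the strand of the gene. Capitals mark the AP-1 motif TGANTCA and, in Mmp13, the Runx motif AACCACA.
Mmp13, chr9:7272264-7272563, plus strand: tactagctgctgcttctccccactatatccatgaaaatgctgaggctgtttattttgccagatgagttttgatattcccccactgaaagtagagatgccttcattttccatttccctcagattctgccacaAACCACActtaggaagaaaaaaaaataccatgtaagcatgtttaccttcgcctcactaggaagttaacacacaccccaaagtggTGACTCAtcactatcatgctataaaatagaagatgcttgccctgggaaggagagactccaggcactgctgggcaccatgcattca
Mmp3, chr9:7445572-7445871, plus strand: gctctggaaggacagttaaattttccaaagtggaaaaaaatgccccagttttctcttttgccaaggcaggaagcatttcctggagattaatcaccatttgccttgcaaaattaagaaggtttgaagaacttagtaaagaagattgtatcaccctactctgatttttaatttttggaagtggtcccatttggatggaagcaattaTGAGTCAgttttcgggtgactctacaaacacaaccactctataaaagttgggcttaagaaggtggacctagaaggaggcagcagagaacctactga
Mmp10, chr9:7502092-7502391, plus strand: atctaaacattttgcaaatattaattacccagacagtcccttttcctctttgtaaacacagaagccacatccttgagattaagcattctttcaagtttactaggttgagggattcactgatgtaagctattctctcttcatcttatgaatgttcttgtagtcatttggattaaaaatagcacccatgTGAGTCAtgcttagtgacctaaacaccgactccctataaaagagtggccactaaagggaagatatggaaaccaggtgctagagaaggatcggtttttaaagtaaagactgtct
Mmp8, chr9:7558179-7558478, plus strand: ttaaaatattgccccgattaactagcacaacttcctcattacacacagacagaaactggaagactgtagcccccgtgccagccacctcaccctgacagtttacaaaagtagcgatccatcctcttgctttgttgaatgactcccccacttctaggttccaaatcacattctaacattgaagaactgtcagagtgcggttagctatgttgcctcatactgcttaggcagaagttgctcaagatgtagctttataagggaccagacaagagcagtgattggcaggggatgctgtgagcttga

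The AP-1 motif starts at -35 in Mmp13, at -46 in Mmp3 and at -63 in Mmp10, counted from the transcription start, and the Runx motif starts at -119 in Mmp13. No copy of either motif was found in the Mmp8 window. Windows were found for 29 of the 42 members (31 windows), of which 5 hold AP-1 (Mmp13, Mmp3, Mmp10, Mmp12 and Mmp20) and 2 hold AACCACA or its reverse complement TGTGGTT (Mmp13 and Mmp27). Both strands were searched. Over all 32851 windows in the table AP-1 was found in 7.81% and the Runx motif in 5.27%. Mmp10, Mmp12 and Mmp20 hold the AP-1 letters as well and were at or near 0 in these cells.

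The window of Adamts14 is shown because all 3 A libraries, from clones that formed fat cells alone, lay above the 9 OAC, OA and O libraries with little spread. Capitals mark GC boxes (GGGCGG or CCGCCC, on either strand, copies next to each other or overlapping by a base merged).
Adamts14, chr10:61273370-61273669, minus strand: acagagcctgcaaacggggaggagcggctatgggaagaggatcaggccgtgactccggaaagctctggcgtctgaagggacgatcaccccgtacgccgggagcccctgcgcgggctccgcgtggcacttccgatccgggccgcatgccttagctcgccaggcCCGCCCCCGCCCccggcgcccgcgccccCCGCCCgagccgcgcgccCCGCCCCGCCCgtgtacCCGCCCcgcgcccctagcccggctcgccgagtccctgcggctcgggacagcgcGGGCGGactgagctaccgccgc

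Adamts14 has no AP-1 and no Runx motif in this window. GC boxes were found in 18 of the 29 members with a window, including Adamts1, Mmp14, Timp1, Timp2 and Timp3, and in 35.7% of all windows.

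Total counts per library ran from 16888190 to 26076539. Markers of bone and fat, but not of cartilage, followed the labels in their sums. The summed level of 5 bone-forming genes (Runx2, Sp7, Alpl, Bglap and Ibsp) was 333.5 to 1812 CPM in OAC libraries, 293.8 to 3273 CPM in OA libraries and 263.0 to 4135 CPM in O libraries, against 105.3 to 233.4 CPM in A libraries. Fat-forming genes (Pparg, Cebpa, Lpl, Plin1, Adipoq and Fabp4) summed to 120.2 to 460.5 CPM in OAC, 138.4 to 172.8 CPM in OA and 61.8 to 112.4 CPM in O libraries, against 236.2 to 410.8 CPM in A libraries. Within that list Fabp4 went the other way, with means of 57.4 CPM in O and 34.6 CPM in A libraries. Single libraries also departed from the sums. Runx2 had its lowest mean in A libraries (76.2 CPM, range 58.4 to 86.4 CPM), yet OA2 was lower still with 55.9 CPM. Adipoq had 3.05 CPM in O1, above A1 (2.92 CPM) and A3 (0.61 CPM) but below A2 (6.68 CPM). The sum of 6 listed cartilage genes overlapped between all 4 groups, with 43.1 to 262.9 CPM in OAC, 30.6 to 303.0 CPM in OA, 45.5 to 315.0 CPM in O and 57.4 to 211.4 CPM in A libraries. Endothelial markers summed to at most 9.63 CPM in any library. Blood and osteoclast markers (9 of 11 listed genes in the table) summed to 65.1 CPM in O1 and to at most 24.4 CPM in the other 13 libraries, with the blood cell gene Ptprc and the osteoclast gene Calcr at or near 0 throughout. Libraries also differed in how strongly their levels followed the GC content of the genes, with a rank correlation across genes of 0.65 in OA2 and 0.51 in O1, against -0.54 in OAC3, OC3 and AC3. Leaving out O1, leaving out O1 with OA2, and a correction for GC content were therefore run for each fold change below, but not for sums, shares and counts of groups that do not overlap.

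Counted per kilobase of exon, so that genes of different length can be compared, a few members carried most of the signal. Mmp14 had the highest mean level over the 14 libraries, 389 CPM per kb, followed by Timp2 with 380.4, Mmp2 with 332.2, Timp1 with 232.4, Timp3 with 74.2 and Mmp23 with 54.7 CPM per kb. The order differed within groups: Mmp2 was above Mmp14 in all 3 O libraries, with 907.5, 632.6 and 351.2 against 645.1, 452.3 and 298.9 CPM per kb in O1 to O3. The same held in OA1 (678.3 against 480.4), A1 (467.7 against 167.3) and OC3 (371.8 against 270.7 CPM per kb), but in no other library. In A libraries Mmp14 had 167.3, 330.8 and 207.1 CPM per kb, against 388.6, 318.8 and 344.2 CPM per kb of Timp2. Mmp14 is the membrane-bound collagenase that also activates the Mmp2 precursor, with Timp2 acting as the bridge between both. Mmp2 and Mmp14 together made up 74.3% to 89.8% of the summed MMP level in the 12 libraries of the 4 groups, and Timp2 made up 46.3% to 68.1% of the summed TIMP level. The highest Adamts genes were Adamts2 with 34.8 and Adamts1 with 34.4 CPM per kb. The 3 parts of the Mmp14, Timp2 and Mmp2 activation complex thus had the 3 highest means over all libraries, but Mmp2 was as low as 47.6 CPM per kb in OAC2 and 32.1 CPM per kb in OAC3.

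**Figure D1:**
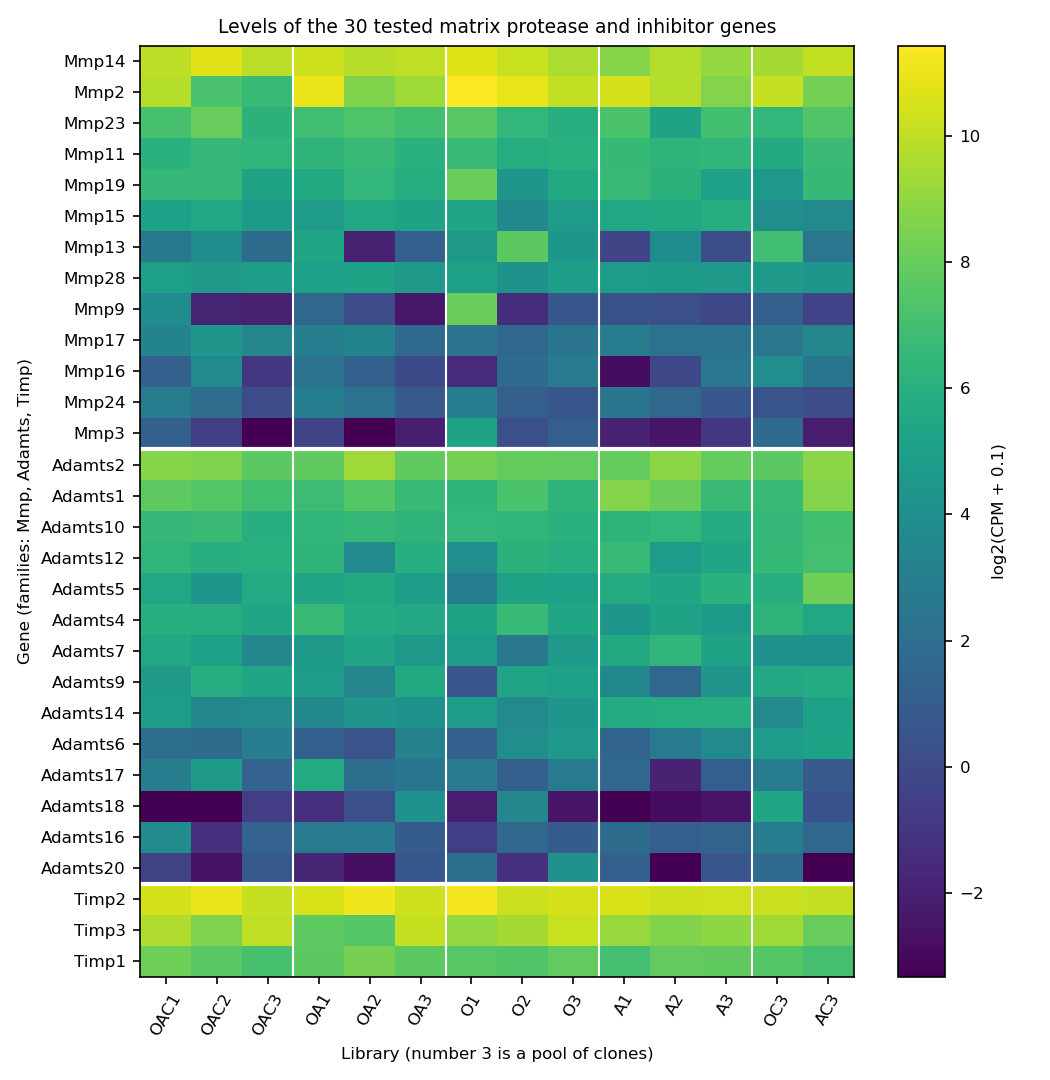
Level of the 30 tested members (rows, grouped as Mmp, Adamts and Timp and ordered by mean level) in the 14 libraries (columns), as log2(CPM + 0.1). Mmp14, Mmp2 and Timp2 are bright in most columns, while Mmp9, Mmp3 and Adamts18 are dark except in a few libraries such as O1, O2 and OC3.

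Summed over each family, MMP levels averaged 746.8 ± 222.2 CPM per kb in OAC libraries, 883.5 ± 354.6 in OA, 1288 ± 573.1 in O and 652.3 ± 171.8 in A libraries (SD, n = 3 each). Adamts levels averaged 133.5 ± 32.2, 128.2 ± 27.7, 105.2 ± 16.4 and 147.3 ± 38.9 CPM per kb in OAC, OA, O and A libraries. TIMP levels averaged 706.8 ± 118.6, 762.1 ± 165.7, 747.7 ± 153.4 and 629.4 ± 28.0 CPM per kb in the same 4 groups. The groups overlapped in all 3 sums. The ratio of summed TIMP to summed protease level was lowest in O2 at 0.428 and highest in OA2 at 1.19, and libraries of 1 group could differ almost as widely. It was 0.451 and 1.19 in the single clones OA1 and OA2, whereas in A it was 0.625 and 0.72 in the single clones A1 and A2 and 1.17 in the pool A3.

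**Figure D2:**
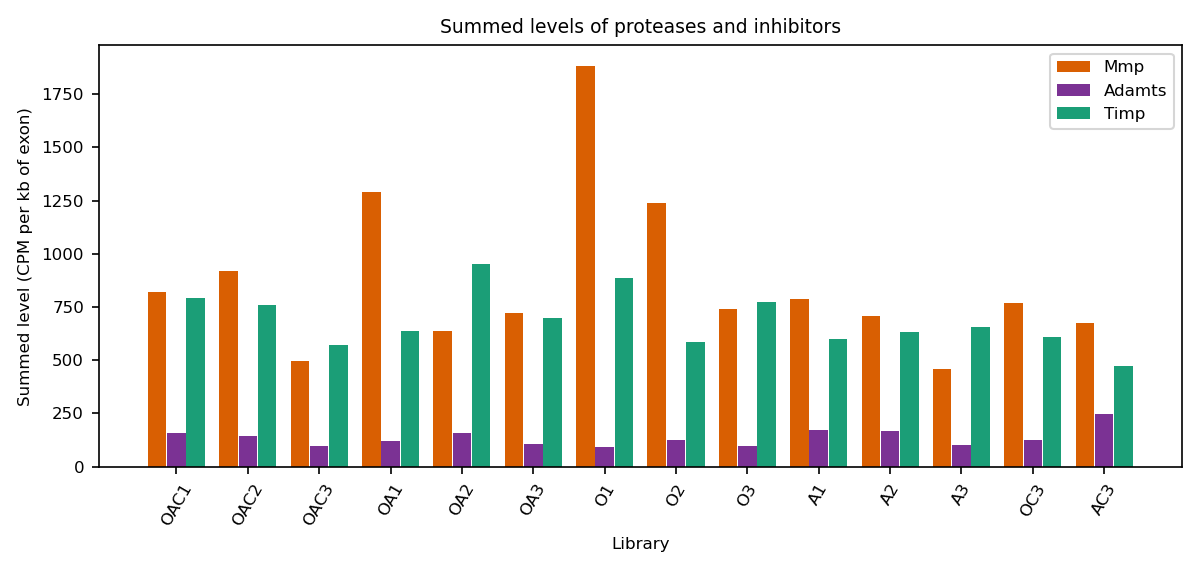
Summed level per kilobase of exon of the Mmp, Adamts and Timp genes in each library. O1 has the tallest Mmp bar (1884 CPM per kb) and A3 the shortest (459.1 CPM per kb), while the Timp bars lie between 472.7 and 949.9 CPM per kb.

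Across the potency groups no member passed the adjusted threshold in edgeR, and DESeq2 called 2, Mmp3 and Adamts14. With edgeR's quasi-likelihood test and Benjamini-Hochberg adjustment over all 13896 tested genes (threshold 0.05), 0 of the 30 tested members were called in each of the 6 pairwise comparisons and in the joint test of the 4 groups. Over all genes this test called 0.0072% in O vs A, in OA vs A and in OAC vs A, and 0 genes in the other 4 tests. At an unadjusted p under 0.05 it counted 9 members in O vs A (9.89% of all genes), 2 in OA vs O (5.43%) and 4 in OA vs A (5.27%). Those in O vs A were Mmp9, Mmp3, Mmp14, Adamts18 and Adamts4, with higher means in O, and Mmp15, Adamts1, Adamts7 and Adamts14, with lower means in O. The test counted 1 in OAC vs OA (1.17%), 2 in OAC vs O (6.02%), 4 in OAC vs A (3.58%) and 5 in the joint test (5.97%), namely Adamts14, Adamts18, Mmp17, Mmp3 and Mmp9. Single libraries moved these counts, A1 and OAC2 among them: without A1 they were 3 in O vs A, 2 in OA vs A, 2 in OAC vs A and 3 in the joint test, and without OAC2 they were 1 in OAC vs A and 3 in the joint test. Over all genes the count without A1 went from 1374 to 1005 in O vs A and from 733 to 591 in OA vs A. It went from 498 to 478 in OAC vs A and from 829 to 641 in the joint test. Without OAC2 it went from 498 to 241 in OAC vs A and from 829 to 649 in the joint test. DESeq2, the second tool, called Mmp3 in O vs A (1 of 27 members with an adjusted p, 3.03% of genes), Adamts14 in OA vs A (1 of 27, 0.937% of genes) and Adamts14 and Mmp3 in the joint test (2 of 27, 2.1% of genes). It called 0 members in OA vs O, OAC vs OA, OAC vs O and OAC vs A (0.303%, 0%, 0.728% and 0.411% of genes). DESeq2 gave no p for Mmp9, Mmp13 and Adamts18 in O vs A, nor for Mmp9 and Adamts18 in the joint test. Every fold change below is log2 of the first named group over the second, and comparisons with A share the 3 A libraries.

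Groups that do not overlap were counted as a second description. In O vs A this held for 7 of the 30 members (15.7% of all genes), in OA vs O for 1 (8.2%), in OA vs A for 5 (11.0%), in OAC vs OA for 0 (4.93%), in OAC vs O for 3 (11.5%) and in OAC vs A for 6 (10.8%). The median log2 fold change of the tested members was 0.22 in O vs A (0.03 over all genes), 0.15 in OA vs O (-0.08), 0.25 in OA vs A (-0.03), 0.07 in OAC vs OA (0.00), 0.09 in OAC vs O (-0.06) and 0.26 in OAC vs A (-0.03). In these bulk cultures, fewer cells that make a transcript and less of the transcript per cell cannot be told apart.

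Among the enzymes that process collagen, Adamts14 had the clearest pattern. Adamts2, Adamts3 and Adamts14 are the procollagen N-proteinases, which remove the amino-terminal propeptide of fibrillar procollagens. Adamts14 had 29.1, 11.4 and 13.4 CPM in OAC1 to OAC3 and 11.5, 20.7 and 16.9 CPM in OA1 to OA3. It had 28.4, 12.9 and 21.2 CPM in O1 to O3 and 54.5, 55.2 and 59.01 CPM in A1 to A3, with 12.6 CPM in OC3 and 34.6 CPM in AC3. All 3 A libraries lay above the 9 libraries of the other groups, and the spread within A was small, with means of 17.96 ± 9.66, 16.4 ± 4.63, 20.8 ± 7.77 and 56.2 ± 2.44 CPM in OAC, OA, O and A libraries (SD, n = 3 each). AC3, the other library without bone-forming potential, lay between A and the rest.

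The log2 fold change of Adamts14 was -1.43 ± 0.41 (SE, edgeR's quasi-likelihood test, adjusted p = 0.271) in O vs A. It was -1.78 ± 0.41 (SE, edgeR, adjusted p = 0.649) in OA vs A. In OAC vs A it was -1.65 ± 0.41 (SE, edgeR, adjusted p = 0.9998). The DESeq2 adjusted p was 0.0509 in O vs A, 0.0125 in OA vs A and 0.0595 in OAC vs A. In the joint test the adjusted p was 0.601 with edgeR, and with DESeq2 it was 0.00507. The DESeq2 call in OA vs A was lost without OA1, A1, A2 or A3 (adjusted p = 0.138, 0.0864, 0.0966 and 0.0914), and the call in the joint test was lost without A1, A2 or A3 (adjusted p = 0.0637, 0.0735 and 0.0859). Its transcript is among the GC-richest of the tested members (59.5% GC), and with the GC correction the O vs A value was -1.48.

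Adamts2 was the main N-proteinase by level and showed no such order. Adamts2 had 429.6, 387 and 212 CPM in OAC1 to OAC3 and 229, 636 and 230.4 CPM in OA1 to OA3. It had 319, 249 and 239.5 CPM in O1 to O3 and 242, 465 and 244 CPM in A1 to A3, with 206 CPM in OC3 and 462 CPM in AC3. OA2 was highest and OC3 lowest, and all 4 groups overlapped. Adamts3 was not tested, with 100 reads in all 14 libraries together and at most 1.65 CPM, in O1.

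**Figure D3:**
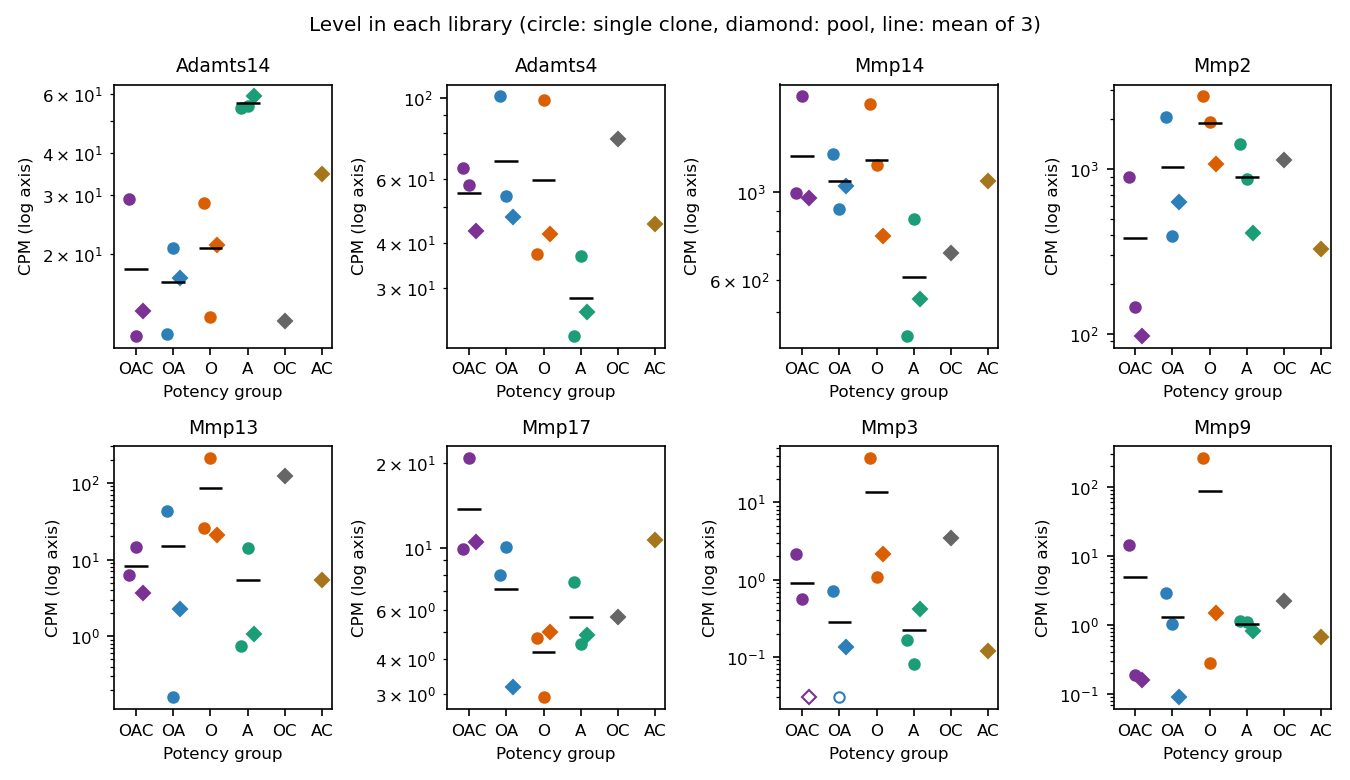
CPM on a log axis for 8 members in OAC, OA, O and A libraries and the OC3 and AC3 pools; circles are single clones, diamonds pools of clones, lines the mean of 3 libraries, and open symbols at the bottom edge are libraries with 0 reads. The 3 A libraries are above all OAC, OA and O libraries for Adamts14 and below them for Adamts4, where O1 (37.3 CPM) and A2 (36.8 CPM) are closest.

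Among the proteoglycan-cutting enzymes, Adamts4 and Adamts1 had opposite orders of A and O libraries. Adamts4, an aggrecanase, had 63.97, 57.7 and 43.1 CPM in OAC1 to OAC3 and 101, 53.8 and 47.04 CPM in OA1 to OA3. It had 37.3, 98.7 and 42.2 CPM in O1 to O3 and 22.2, 36.8 and 25.7 CPM in A1 to A3, with 76.9 CPM in OC3 and 45.1 CPM in AC3. The A libraries were the lowest of the 12 without overlap, OA1 and O2 the highest. Relative to A, the log2 fold change of O was 1.07 ± 0.42 (SE, edgeR, adjusted p = 0.441), and leaving out O2 gave 0.49. It was 1.25 ± 0.43 (SE, edgeR, adjusted p = 0.755) in OA vs A. In OAC vs A it was 0.96 ± 0.42 (SE, edgeR, adjusted p = 0.9998).

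Adamts1, which cuts versican and aggrecan, was the second most abundant Adamts gene. Adamts1 had 218, 184 and 126 CPM in OAC1 to OAC3 and 112, 188 and 104 CPM in OA1 to OA3. It had 77.3, 152 and 76.1 CPM in O1 to O3 and 421, 277 and 106 CPM in A1 to A3, with 99.4 CPM in OC3 and 413 CPM in AC3. A1 and AC3 were highest and O3 and O1 lowest, but A3 lay among the OAC, OA and O libraries. Between O and A the log2 fold change was -1.40 ± 0.49 (SE, edgeR, adjusted p = 0.379), and without A1 it was -0.91, with an unadjusted p above 0.05. Adamts5, the neighbour of Adamts1 on chromosome 16 and the main aggrecanase of mouse cartilage, stood out in a pool instead. Adamts5 had 46.1, 21.2 and 51.8 CPM in OAC1 to OAC3 and 41.5, 50.4 and 30.5 CPM in OA1 to OA3. It had 8.07, 35.9 and 34.1 CPM in O1 to O3 and 54.4, 42.7 and 68.4 CPM in A1 to A3, with 59.9 CPM in OC3 and 299 CPM in AC3. The O libraries lay below the A libraries without overlap, and AC3 exceeded the highest of the 12 compared libraries, A3, several times over. Adamts9, another proteoglycanase, was most uneven in the unipotent clones. Adamts9 had 23.9, 57.5 and 41.9 CPM in OAC1 to OAC3 and 28.9, 10.2 and 48.8 CPM in OA1 to OA3. It had 1.4, 38.4 and 35.2 CPM in O1 to O3 and 11.8, 3.08 and 20.9 CPM in A1 to A3, with 48.7 CPM in OC3 and 52.8 CPM in AC3. The OAC libraries lay above the A libraries without overlap, while O1 and A2 were lowest of all.

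Adamts20, Adamts15 and Adamts8 complete the proteoglycanase group. Adamts20 was tested and ranged from 0 CPM in A2 and AC3 to 17.5 CPM in O3. Adamts15 had 125 reads in all, with its highest levels in OC3 (2.57 CPM) and OA3 (1.75 CPM), and Adamts8, its neighbour on chromosome 9, had 4 reads. Both were not tested.

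Adamts7 and Adamts12 cut cartilage oligomeric matrix protein. Adamts7 had 45.01, 32.9 and 11.4 CPM in OAC1 to OAC3 and 25.2, 38.4 and 25.1 CPM in OA1 to OA3. It had 27.5, 5.96 and 25.5 CPM in O1 to O3 and 50.5, 82.8 and 36.03 CPM in A1 to A3, with 17.6 CPM in OC3 and 18.8 CPM in AC3. The 3 O libraries lay below the 3 A libraries, and O2 and OAC3 were lowest. For O vs A its log2 fold change was -1.52 ± 0.62 (SE, edgeR, adjusted p = 0.447), and it was -1.14 without A2 and -1.09 without O2, both with an unadjusted p above 0.05. Exons of Adamts7 overlap those of Tbc1d2b on the opposite strand, which averaged 135.0 ± 57.8, 115.5 ± 66.8, 66.1 ± 11.0 and 187.6 ± 74.6 CPM in OAC, OA, O and A libraries and so had the same order of O and A; its part in the Adamts7 counts was not tested. The strand setting of the counting is not given in the sources used here, so reads of any member whose exons overlap a gene on the opposite strand cannot be told apart from those of that gene. Adamts12 had 80.95, 57.5 and 64.6 CPM in OAC1 to OAC3 and 76.6, 13.2 and 64.4 CPM in OA1 to OA3. It had 15.0, 70.7 and 58.5 CPM in O1 to O3 and 98.5, 27.04 and 43.1 CPM in A1 to A3, with 92.9 CPM in OC3 and 129 CPM in AC3. Its low libraries, OA2, O1 and A2, came from 3 different groups.

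Adamts10 and Adamts17, whose human counterparts are mutated in Weill-Marchesani syndrome, behaved very differently. Adamts10 had 91.6, 106 and 61.5 CPM in OAC1 to OAC3 and 80.7, 91.3 and 76.3 CPM in OA1 to OA3. It had 86.3, 80.6 and 69.5 CPM in O1 to O3 and 76.7, 87.99 and 54.2 CPM in A1 to A3, with 88.8 CPM in OC3 and 124 CPM in AC3. It was one of the steadiest members, with a highest level 2.28 times the lowest. Adamts17 had 7.45, 24.9 and 2.37 CPM in OAC1 to OAC3 and 52.8, 3.91 and 5.2 CPM in OA1 to OA3. It had 6.87, 2.07 and 6.93 CPM in O1 to O3 and 2.92, 0.162 and 2.02 CPM in A1 to A3, with 7.12 CPM in OC3 and 1.67 CPM in AC3. OA1 and OAC2 were far above the rest, and A2 was lowest. In OA vs A the log2 fold change was 3.60 ± 1.33 (SE, edgeR, adjusted p = 0.795), and without OA1 it was 1.42, with an unadjusted p above 0.05.

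Adamts18 was near 0 in most libraries and high in a few. Adamts18 had 0, 0 and 0.552 CPM in OAC1 to OAC3 and 0.3, 1.12 and 17.8 CPM in OA1 to OA3. It had 0.127, 11.2 and 0.0749 CPM in O1 to O3 and 0, 0.0405 and 0.0762 CPM in A1 to A3, with 40.0 CPM in OC3 and 1.23 CPM in AC3. High levels were found in the pools OC3 and OA3 and in the single clone O2, OA2 and AC3 were slightly above 1 CPM, and every OAC and A library was under 1 CPM. In reads, the 3 OA libraries held 424 in all (397 from OA3) and the 3 O libraries 279 (275 from O2), against 3 in the 3 A libraries. The ratio of the summed levels was 174.5 in OA vs A (95% interval 59.3 to 849.7, counting error only) and 104.3 in O vs A (35.3 to 509). The fitted log2 fold change was 7.16 ± 2.58 (SE, edgeR, adjusted p = 0.79) in OA vs A, and without OA3 it was 3.99, with an unadjusted p above 0.05. In O vs A it was 6.40 ± 2.52 (SE, edgeR, adjusted p = 0.441), and leaving out O2 gave 1.19. The difference in OAC vs OA was -4.99 ± 2.23 (SE, edgeR, adjusted p = 0.9997), and without OA3 it was -1.83.

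Adamts6 and Adamts16 were tested, with means of 11.2 and 3.98 CPM over the 14 libraries. Adamts6 had 3.92, 3.64 and 7.89 CPM in OAC1 to OAC3 and 2.25, 1.29 and 8.735 CPM in OA1 to OA3. It had 2.23, 15.4 and 22.97 CPM in O1 to O3 and 2.75, 6.27 and 13.1 CPM in A1 to A3. The pools AC3 (37.7 CPM) and OC3 (28.6 CPM) were highest and OA2 lowest. In each of the 4 groups the pool, numbered 3, was above both single clones, and the cause was not tested. Adamts16 ranged from 0.314 CPM in OAC2 to 13.8 CPM in OAC1. Adamts13, which cuts von Willebrand factor in plasma, had 8 reads and was not tested.

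Among the membrane-bound MMPs, Mmp14 had its lowest mean in A libraries. Mmp14 had 998, 1748 and 969 CPM in OAC1 to OAC3 and 1248, 909.9 and 1040 CPM in OA1 to OA3. It had 1675, 1175 and 776 CPM in O1 to O3 and 434, 859 and 538 CPM in A1 to A3, with 703 CPM in OC3 and 1070 CPM in AC3. OAC2 and O1 were highest and A1 lowest. The OAC libraries, and likewise the OA libraries, lay above the A libraries without overlap, whereas O3 was below A2. Means were 1238 ± 441, 1066 ± 170.4, 1209 ± 450.5 and 610.4 ± 221 CPM in OAC, OA, O and A libraries (SD, n = 3 each). In OAC vs A the log2 fold change was 1.02 ± 0.37 (SE, edgeR, adjusted p = 0.9998), and without OAC2 it was 0.69. In O vs A it was 0.99 ± 0.37 (SE, edgeR, adjusted p = 0.417), and without O1 it was 0.68. Without these libraries both unadjusted p-values were above 0.05.

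Mmp17, which is held at the membrane by a lipid anchor, was higher in every tripotent library than in any unipotent one. Mmp17 had 9.92, 20.9 and 10.5 CPM in OAC1 to OAC3 and 8.01, 10.1 and 3.18 CPM in OA1 to OA3. It had 4.77, 2.92 and 4.98 CPM in O1 to O3 and 7.52, 4.53 and 4.88 CPM in A1 to A3, with 5.64 CPM in OC3 and 10.7 CPM in AC3. OAC2 was highest, and the OA libraries overlapped with both sides. In OAC vs O the log2 fold change was 1.70 ± 0.49 (SE, edgeR, adjusted p = 0.73). It ran from 1.27 to 1.89 when 1 library was left out, each time with an unadjusted p under 0.05. In OAC vs A it was 1.29 ± 0.49 (SE, edgeR, adjusted p = 0.9998), and without OAC2 it was 0.85. AC3 (10.7 CPM), which shares the cartilage potential, lay at the level of OAC1 and OAC3, and OC3 (5.64 CPM) did not.

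The other membrane-bound MMPs varied less clearly with potency. Mmp15 had 34.8, 44.2 and 26.5 CPM in OAC1 to OAC3 and 27.03, 46.4 and 36.4 CPM in OA1 to OA3. It had 42.3, 11.9 and 26.97 CPM in O1 to O3 and 45.5, 50.2 and 57.4 CPM in A1 to A3, with 15.7 CPM in OC3 and 12.4 CPM in AC3. The O libraries lay below the A libraries, and O2, AC3 and OC3 were lowest. The O libraries had a log2 fold change of -0.92 ± 0.41 (SE, edgeR, adjusted p = 0.496) over A, and leaving out O2 gave -0.56. Mmp23 had 143, 255 and 70.7 CPM in OAC1 to OAC3 and 121, 166 and 125 CPM in OA1 to OA3. It had 196, 86.2 and 59.3 CPM in O1 to O3 and 152, 36.3 and 124 CPM in A1 to A3, with 87.1 CPM in OC3 and 171 CPM in AC3. A2 and O3 were lowest and OAC2 highest, with overlap between all groups. Mmp16 and Mmp24 were tested at low levels, Mmp16 between 0.0411 CPM in A1 and 15.1 CPM in OC3 and Mmp24 between 0.947 CPM in OAC3 and 7.86 CPM in OA1. Mmp24 fell from library 1 to library 3 in each of the 4 groups. It had 7.19, 3.83 and 0.947 CPM in OAC, 7.86, 4.5 and 1.61 CPM in OA libraries. In O it had 7.25, 2.15 and 1.42 CPM, and in A 5.22, 2.87 and 1.52 CPM. The pools OC3 and AC3 had 1.32 and 1.03 CPM. The cause of this order was not tested. Mmp25, another lipid-anchored MMP, had 86 reads in all and was not tested.

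Gelatinases cut denatured collagen and basement membrane collagen. Mmp2 had 899.9, 145 and 97.5 CPM in OAC1 to OAC3 and 2061, 392 and 634 CPM in OA1 to OA3. It had 2757, 1922 and 1067 CPM in O1 to O3 and 1421, 871 and 407 CPM in A1 to A3, with 1129 CPM in OC3 and 326 CPM in AC3. Within OAC the single clone OAC1 was far above OAC2 and OAC3, and all 3 were below the lowest O library. Means were 381 ± 450.2, 1029 ± 902, 1915 ± 845 and 899.5 ± 508 CPM in OAC, OA, O and A libraries (SD, n = 3 each). In OAC vs O the log2 fold change was -2.33 ± 0.92 (SE, edgeR, adjusted p = 0.797), and it was -3.98 without OAC1, where DESeq2 then called it (adjusted p = 0.000183). It was -1.94 without OAC2, -1.88 without OAC3 and -1.97 without O1, each with an unadjusted p above 0.05. In O vs A it was 1.09 ± 0.89 (SE, edgeR, adjusted p = 0.828), with A1 above O3. As a share of the summed MMP level, Mmp2 ran from 5.17% in OAC2 to 36.0% in OAC1, and from 47.4% to 51.1% in O libraries. This share ran from 20.2% to 52.6% in OA libraries and from 29.2% to 59.4% in A libraries.

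Mmp9 was high in a single library. Mmp9 had 14.6, 0.189 and 0.158 CPM in OAC1 to OAC3 and 2.85, 1.02 and 0.0896 CPM in OA1 to OA3. It had 262, 0.284 and 1.5 CPM in O1 to O3 and 1.15, 1.09 and 0.801 CPM in A1 to A3, with 2.23 CPM in OC3 and 0.674 CPM in AC3. O1 held 4124 reads, and OAC1 was next. The fitted log2 fold change was 6.43 ± 2.57 (SE, edgeR, adjusted p = 0.443) in O vs A and -6.06 ± 2.53 (SE, edgeR, adjusted p = 0.902) in OA vs O. Without O1 these values turned to -0.18 and 0.56. Mmp9 is made in large amounts by osteoclasts and neutrophils, and O1 is the library with the highest blood and osteoclast marker sum (65.1 CPM). Of these markers Lyz2 had 37.2 CPM and Cd14 16.3 CPM in O1, the highest of the 14 libraries. Cd68 had 7.25 CPM and Csf1r 4.07 CPM in O1, below 13.8 CPM in A1 and 4.955 CPM in OA1. Ptprc and Calcr had 0 reads in O1, Itgam had 0.127 CPM, and Acp5 and Oscar had 0.0636 CPM each. The part of other cells in the Mmp9 level of O1 was not tested.

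Mmp3, the stromelysin that also activates other MMP precursors, was likewise highest in O1. O1 was the highest of the 14 libraries for 5 of the 30 tested members and for 21.7% of genes. Mmp3 had 2.16, 0.565 and 0 CPM in OAC1 to OAC3 and 0.701, 0 and 0.134 CPM in OA1 to OA3. It had 37.6, 1.09 and 2.13 CPM in O1 to O3 and 0.164, 0.0809 and 0.419 CPM in A1 to A3, with 3.48 CPM in OC3 and 0.119 CPM in AC3. All 3 O libraries lay above the A libraries and the OA libraries, yet O2 and O3 did not exceed OAC1. Its log2 fold change was 5.90 ± 1.96 (SE, edgeR, adjusted p = 0.359) in O vs A, with a DESeq2 adjusted p of 0.0104. Without O1 it was 2.83, and the DESeq2 adjusted p was 0.558. That call was also lost without A1 or A2 (adjusted p = 0.0771 and 0.0887). In OA vs O it was -5.58 ± 1.94 (SE, edgeR, adjusted p = 0.852), and without O1 it was -2.51. The 3 OA libraries included OA2 with 0 reads. The DESeq2 adjusted p of the joint test was 0.0201, and it was 0.862 without O1, 0.0889 without A1 and 0.087 without A2.

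Mmp13 is the main interstitial collagenase of mouse osteoblasts and hypertrophic chondrocytes. Mmp13 had 6.22, 14.4 and 3.67 CPM in OAC1 to OAC3 and 43.2, 0.161 and 2.24 CPM in OA1 to OA3. It had 25.4, 211 and 21.02 CPM in O1 to O3 and 0.739, 14.3 and 1.07 CPM in A1 to A3, with 122 CPM in OC3 and 5.39 CPM in AC3. O2, OC3 and OA1 were high, OA2 had next to none, and O libraries lay above A libraries without overlap. Group means were 8.11 ± 5.63, 15.2 ± 24.3, 85.8 ± 108 and 5.38 ± 7.75 CPM in OAC, OA, O and A libraries (SD, n = 3 each). Between O and A the log2 fold change of Mmp13 was 4.0 ± 1.82 (SE, edgeR, adjusted p = 0.512), 2.1 without O2 and 3.85 with the GC correction (then with an unadjusted p under 0.05). DESeq2 gave no p. Of its neighbours on chromosome 9, Mmp3 reached 37.6 CPM in O1, above Mmp13 there (25.4 CPM). The other neighbours in the count table stayed low. Mmp12 and Mmp8 had 1 read each in all 14 libraries, Mmp20 had 5, Mmp27 had 22 and Mmp10 had 42.

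The remaining MMPs were mostly steady. Mmp11 had 69.1, 90.3 and 84.04 CPM in OAC1 to OAC3 and 76.1, 98.2 and 68.5 CPM in OA1 to OA3. It had 102, 56.96 and 64.8 CPM in O1 to O3 and 93.8, 77.8 and 83.9 CPM in A1 to A3, with 49.7 CPM in OC3 and 106 CPM in AC3. This stromelysin differed by 2.13 times between its lowest and highest library. Mmp28 had 32.3, 24.4 and 30.5 CPM in OAC1 to OAC3 and 31.7, 38.2 and 25.4 CPM in OA1 to OA3. It had 33.3, 19.2 and 31.1 CPM in O1 to O3 and 28.4, 25.8 and 25.4 CPM in A1 to A3, with 24.7 CPM in OC3 and 21.5 CPM in AC3. Mmp28, epilysin, was the steadiest of the tested members, with a highest level 1.99 times its lowest. Mmp19 had 88.97, 92.1 and 35.98 CPM in OAC1 to OAC3 and 49.6, 87.2 and 57.5 CPM in OA1 to OA3. It had 280.1, 21.1 and 49.9 CPM in O1 to O3 and 104, 72.5 and 34.4 CPM in A1 to A3, with 23.1 CPM in OC3 and 95.1 CPM in AC3. O1 was far above the others, with O2 and OC3 lowest. Exons of Mmp19 overlap those of Tmem198b on the opposite strand, which averaged 37.4 to 44.4 CPM in the 4 groups. Mmp21 had 4 reads and was not tested.

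Among the inhibitors, no TIMP had an unadjusted p under 0.05 in any comparison. Timp1 had 287, 203 and 138 CPM in OAC1 to OAC3 and 206, 341 and 206 CPM in OA1 to OA3. It had 195, 171 and 234 CPM in O1 to O3 and 127, 233 and 224 CPM in A1 to A3, with 187 CPM in OC3 and 137 CPM in AC3. OA2 was highest and A1 lowest, and the groups overlapped. Timp2 had 1429, 1878 and 1132 CPM in OAC1 to OAC3 and 1472, 2118 and 1285 CPM in OA1 to OA3. It had 2352, 1195 and 1433 CPM in O1 to O3 and 1514, 1242 and 1341 CPM in A1 to A3, with 1239 CPM in OC3 and 1119 CPM in AC3. O1 and OA2 were highest, and the highest library had 2.1 times the level of the lowest. Timp3, which binds to matrix and also blocks aggrecanases of the ADAMTS family, varied most. It had 826, 383 and 1023 CPM in OAC1 to OAC3 and 214, 185 and 1126 CPM in OA1 to OA3. It had 517, 686 and 1159 CPM in O1 to O3 and 560.2, 404 and 485 CPM in A1 to A3, with 639 CPM in OC3 and 254 CPM in AC3. High and low libraries were found within OAC, OA and O alike, for example OA3 against OA1 and OA2, while the 3 A libraries were close together. For O vs A its log2 fold change was 0.71 ± 0.66 (SE, edgeR, adjusted p = 0.883). Exons of Timp3 overlap those of Syn3 on the opposite strand, which averaged 49.2, 19.3, 36.6 and 30.1 CPM in OAC, OA, O and A libraries. Timp4 had 9 reads in all and was not tested.

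**Figure D4:**
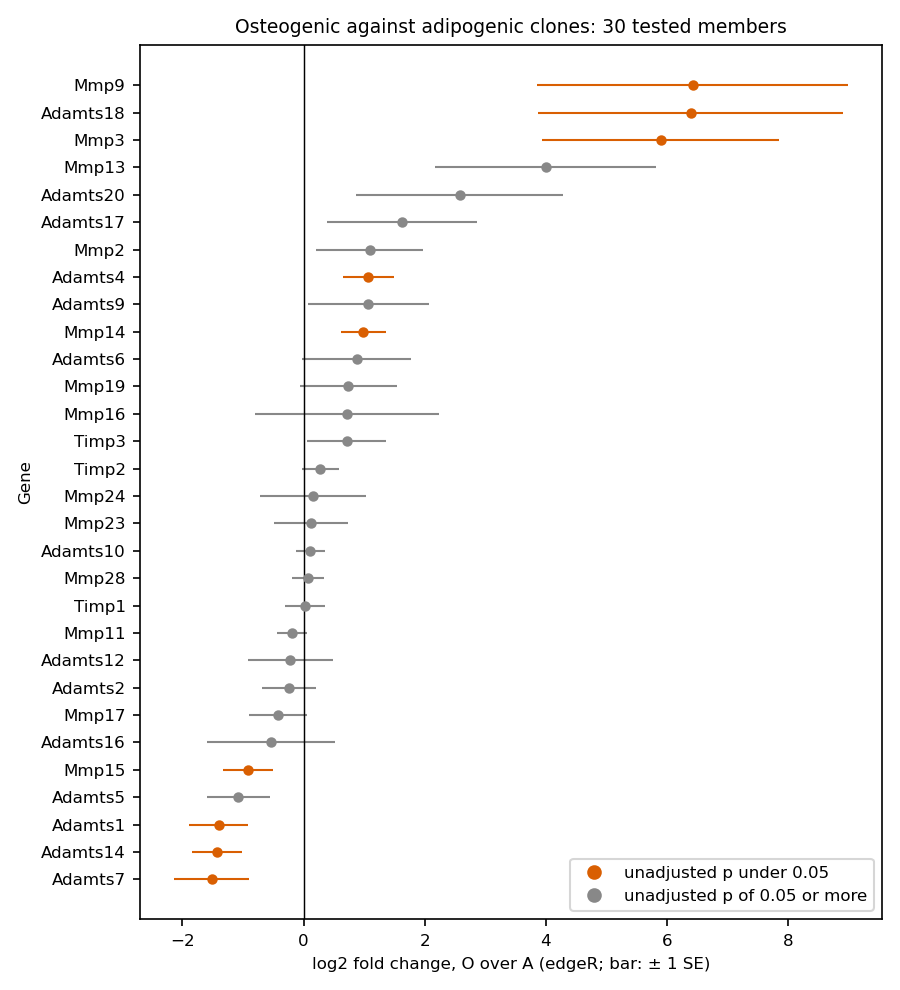
Log2 fold change of O over A for the 30 tested members (edgeR, points with ± 1 SE), ordered by size; orange marks an unadjusted p under 0.05, and no adjusted p was under 0.05. Mmp9, Adamts18 and Mmp3 have the highest values (6.43, 6.40 and 5.90) with wide errors, and Adamts7, Adamts14 and Adamts1 the lowest (-1.52, -1.43 and -1.40) with narrower ones.

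The genes that switch these enzymes on were compared next. The list of activators holds 8 genes (plasminogen activators and their receptor, furin-type convertases, and Bsg, the MMP inducer basigin), all tested, with 0 past the adjusted edgeR threshold in any comparison. At an unadjusted p under 0.05, 1 was higher and 1 lower in O vs A, 1 higher and 1 lower in OA vs O, 1 higher and 2 lower in OAC vs O, and 0 in OA vs A, OAC vs OA and OAC vs A. Over all genes the shares higher and lower at this level were 4.92% and 4.97% in O vs A, 3.2% and 2.24% in OA vs O, 2.99% and 2.29% in OA vs A, 0.727% and 0.446% in OAC vs OA, 3.2% and 2.82% in OAC vs O, and 1.92% and 1.66% in OAC vs A. These shares are the background for the 3 lists that follow as well. DESeq2 called 1 activator, lower in O vs A. Over all genes DESeq2 called 3.03% in O vs A, 0.303% in OA vs O and 0.937% in OA vs A. It called 0% in OAC vs OA, 0.728% in OAC vs O and 0.411% in OAC vs A. These DESeq2 shares take both directions together and are the background for its calls in all 4 lists. Furin, which cuts the propeptide of membrane-bound MMPs, had 337, 332 and 218 CPM in OAC libraries, 321, 424 and 186 CPM in OA, 206, 122 and 143 CPM in O and 265, 223 and 236 CPM in A libraries. Its log2 fold change was 0.91 ± 0.32 (SE, edgeR, adjusted p = 0.763) in OAC vs O and 0.98 ± 0.32 in OA vs O, the second being 0.65 without OA2, with an unadjusted p above 0.05. Plau, urokinase, had 84.96, 80.2 and 74.2 CPM in OAC libraries, 118, 74.2 and 64.01 CPM in OA, 132, 177 and 126 CPM in O and 127, 50.8 and 101 CPM in A libraries, with a log2 fold change of -0.86 ± 0.34 in OAC vs O. Bsg had a log2 fold change of 0.77 ± 0.30 in O vs A and -0.76 ± 0.30 in OAC vs O, and its highest level by far was in O1 (2319 CPM). Without O1 these values were 0.3 and -0.28, both with an unadjusted p above 0.05. Pcsk5, a convertase, had a log2 fold change of -4.29 ± 1.26 in O vs A at low levels, with 0, 0.122 and 0.3 CPM in O and 4.89, 2.995 and 1.22 CPM in A libraries.

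The list of other inhibitors and ADAMTS-like proteins holds 18 genes, of which 12 were tested and 0 passed the adjusted edgeR threshold. At an unadjusted p under 0.05, 2 were higher and 1 lower in O vs A, 3 higher in OA vs A, 2 higher in OAC vs A, and 1 lower in OAC vs O. In O vs A the background was 4.92% higher and 4.97% lower. DESeq2 called 2 higher in O vs A and 1 higher in OA vs A. Serpinf1, a secreted serpin known as pigment epithelium-derived factor, had 379, 386 and 461 CPM in OAC libraries, 579.5, 1005 and 461 CPM in OA, 802, 387 and 352 CPM in O and 212, 242 and 112 CPM in A libraries. Serpinf1 was listed for its serpin family, and whether it blocks any protease was not tested. All 9 libraries of the OAC, OA and O groups lay above the 3 A libraries. Its log2 fold change was 1.45 ± 0.42 (SE, edgeR, adjusted p = 0.279) in O vs A, 1.85 ± 0.42 in OA vs A and 1.12 ± 0.41 in OAC vs A. Reck, a membrane-anchored MMP inhibitor, had 11.5, 24.9 and 16.7 CPM in OAC libraries, 12.96, 10.0 and 29.2 CPM in OA, 6.61, 40.9 and 13.5 CPM in O and 11.9, 8.5 and 9.19 CPM in A libraries, with no unadjusted p under 0.05.

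The list of other extracellular proteases holds 20 genes, of which 16 were tested and 0 passed the adjusted edgeR threshold. At an unadjusted p under 0.05, 2 were higher and 3 lower in O vs A, 2 higher and 1 lower in OA vs A, 1 higher and 1 lower in OA vs O and in OAC vs O, and 1 lower in OAC vs OA. In O vs A the background was again 4.92% higher and 4.97% lower. DESeq2 called 1 lower in O vs A, 1 higher in OA vs O and 1 higher in OAC vs O. Adam23, which belongs to the membrane-anchored relatives of the ADAMTS genes and lacks protease activity, was low in O clones. It had 37.8, 59.4 and 24.6 CPM in OAC libraries, 117, 45.01 and 11.3 CPM in OA, 1.08, 1.62 and 7.79 CPM in O and 93.6, 53.7 and 38.9 CPM in A libraries, and every OAC, OA and A library exceeded the highest O library. Between O and A the log2 fold change of Adam23 was -4.13 ± 0.97 (SE, edgeR, adjusted p = 0.208), with a DESeq2 adjusted p of 0.000189. It was 4.03 ± 0.97 in OA vs O and 3.52 ± 0.94 in OAC vs O. Bmp1, the procollagen C-proteinase that trims the other end of the molecules cut by Adamts14, had 413, 292 and 374 CPM in OAC libraries, 596, 512 and 479.5 CPM in OA, 568, 501 and 338 CPM in O and 278, 365 and 269 CPM in A libraries. Its log2 fold change was 0.80 ± 0.24 (SE, edgeR, adjusted p = 0.676) in OA vs A and 0.63 ± 0.24 in O vs A, so its means were above those of A where the means of Adamts14 were below.

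The matrix proteins that these enzymes cut were compared last. Of 19 listed substrates 16 were tested. At an unadjusted p under 0.05, 6 were higher and 3 lower in O vs A, 6 higher in OA vs A, 7 higher in OAC vs A, 4 higher in OA vs O, 5 higher in OAC vs O and 0 in OAC vs OA, against 4.92% of all genes higher and 4.97% lower in O vs A, 2.99% higher in OA vs A and 1.92% higher in OAC vs A. None passed the adjusted edgeR threshold, while DESeq2 called 5 higher and 1 lower in O vs A, 5 higher in OA vs A, 4 higher in OAC vs A and 1 higher in OAC vs O. The DESeq2 shares of all genes, both directions together, were 3.03%, 0.937%, 0.411% and 0.728% in the same order of comparisons. Col1a1, a chain of type I collagen, had 28250, 36180 and 22490 CPM in OAC libraries, 45130, 49080 and 27690 CPM in OA, 55500, 49100 and 33790 CPM in O and 9334, 4955 and 11230 CPM in A libraries. Its log2 fold change was 2.44 ± 0.39 (SE, edgeR, adjusted p = 0.123) in O vs A (adjusted p = 0.0365 with the GC correction), 2.26 ± 0.39 in OA vs A and 1.77 ± 0.38 in OAC vs A. Fmod, fibromodulin, a small proteoglycan of collagen fibrils, had a log2 fold change of 4.07 ± 0.53 (SE, edgeR, adjusted p = 0.0605) in O vs A, and without O1 the adjusted p was 0.0112. With edgeR, no gene passed the adjusted threshold in O vs A without A1, without A2, without the pools or with the compared groups alone. Spp1, osteopontin, an MMP substrate, had a log2 fold change of -2.54 ± 0.55 in O vs A and 2.76 ± 0.56 in OAC vs O. In A libraries the procollagen-trimming enzyme Adamts14 had its highest level beside the lowest levels of its substrate Col1a1, and both differed from the other 9 libraries without overlap.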

How the data were processed

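Polyadenylated RNA of 14 libraries was sequenced with a strand-specific protocol, per the labels' protocols. The authors deposited a table of whole-number read counts per gene, and per the submitters' processing notes CASAVA 1.8.0, bedtools 2.11 and mouse build mm9 were used. Aligner, read filters and strand setting were not given in the sources used here. Columns were matched to libraries by name and grouped by the potency in the labels.

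From the counts, levels were computed as CPM on TMM-scaled library sizes (total counts 16888190 to 26076539), and per kilobase of exon with the exonic lengths in the deposited table. GC content is that of the longest GENCODE transcript of a gene. A gene was tested where 3 or more libraries reached 1 CPM (13896 genes). Tests were run with edgeR 4.0.16, by its quasi-likelihood F test (limma 3.58.1, R 4.3.3) with 6 group means (8 residual degrees of freedom) and Benjamini-Hochberg adjustment. DESeq2 1.42.0 was the second tool. SE is the log2 fold change divided by the root of F. Both tools were also run on simulated counts. The outcome is not reported here, so that run does not bear on their different numbers of calls. Poisson intervals at 95% cover counting error only.

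Every member is named; those averaging at least 20 CPM, or with an unadjusted edgeR p under 0.05 in any test, and Mmp13, Mmp2 and Timp3, are given in every library. Listed other genes are given where their unadjusted p was under 0.05, at most 4 per list and comparison; Reck, Lyz2, Cd14 and the other markers given for O1 were added after their values were seen. Some listed or overlapping genes that this rule would name are not reported here. The members and lists were chosen with earlier results of these data known. Promoter windows are from RefSeq on GRCm38.p6, a later build than that of the counts.

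Alternatives were DESeq2 size factors, other low-count filters, the compared groups alone, a replicate block, a GC offset, leaving out the pools, and leaving out libraries. DESeq2 with libraries left out, the GC offset without OA2 and O1, and all alternatives for listed genes that are no members, were added after seeing the data.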

Additional observations from a re-analysis of the deposited data

Results flagged for a closer look

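Outliers within the 4 groups were not looked for, since each holds 3 libraries. In the 2 unreplicated pools, which enter no comparison, members at 5 CPM or more whose level was over 2 times the highest of the 12 compared libraries are listed here. Adamts5 reached 299 CPM in AC3 (7548 reads, 95% Poisson interval 292.5 to 306 CPM, counting error only), against 68.4 CPM in A3, the highest of the 12. Adamts18 reached 40.0 CPM in OC3 (1057 reads, 37.6 to 42.5 CPM), against 17.8 CPM in OA3. For each pool, the members above all 12 libraries were 5 of 30 in AC3 (13.9% of all tested genes) and 3 of 30 in OC3 (10.1%), so such a position was not rare among genes. With 1 library each, no test of these differences was possible.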

How the results depend on the processing

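The number of members past the adjusted threshold was 0 in all 7 tests under each edgeR alternative, leave-one-out included. With DESeq2 it was 1 in O vs A, 1 in OA vs A and 2 in the joint test. With 1 library left out, DESeq2 called 0 to 3 members in O vs A, 0 to 3 in OA vs A, 0 to 2 in OA vs O and OAC vs A, 0 to 1 in OAC vs OA and OAC vs O, and 0 to 4 in the joint test. Over all genes these DESeq2 calls ran from 241 to 580 in O vs A and from 74 to 206 in OA vs A. They ran from 9 to 304 in OA vs O and from 14 to 106 in OAC vs A. They ran from 0 to 13 in OAC vs OA, 28 to 185 in OAC vs O and 183 to 477 in the joint test. DESeq2 called 420 genes in O vs A, against 1 with edgeR. Members at an unadjusted edgeR or DESeq2 p under 0.05 ranged over the settings from 3 to 11 in O vs A, 0 to 4 in OA vs O, 2 to 7 in OA vs A, 0 to 3 in OAC vs OA, 2 to 6 in OAC vs O, 1 to 6 in OAC vs A and 3 to 9 in the joint test. Over all genes the counts under the same settings ran from 928 to 1791 in O vs A and from 322 to 1343 in OA vs O. They ran from 499 to 1129 in OA vs A and from 99 to 467 in OAC vs OA. They ran from 493 to 1353 in OAC vs O, 233 to 1072 in OAC vs A and 510 to 1433 in the joint test. Libraries whose loss moved such a count of members by more than 1.5 times were A1, A3, OAC1, OAC2, OA1, OA2, OA3, O2, O3 and A2.

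Of the 25 fold changes of members and the 20 of other listed genes, only those of Mmp9 changed sign under the alternatives run. In O vs A it ran from -0.18 to 7.01 with 1 library left out, and was -0.18 without O1 (also -0.18 in DESeq2), -0.2 without OA2 and O1, and -0.04 with a GC offset without both. In OA vs O it ran from -7.32 to 0.56 with 1 library left out, and was 0.56 without O1 (0.58 in DESeq2), 0.73 without OA2 and O1, and 0.53 with a GC offset without both. The cause was not tested. Mmp9 and Mmp3 gave no value at a minimum of 5 CPM, which removed them.

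Libraries with the same number share a mouse or pool only as far as the labels say. For that reason they were not treated as paired in the main tests. The correlations of their deviations gave no ground against pairing. These were over 0.1 in 11 of 18 same-numbered pairs (range -0.585 to 0.759), with a mean of 0.197. The 36 pairs with different numbers had a mean of -0.0984 (range -0.699 to 0.666). The 6 pairs among the pools all lay between 0.295 and 0.759. With the replicate block, 0 members passed the adjusted threshold in each test, and the genes called in O vs A remained 1 in number. The block moved the count at an unadjusted p under 0.05 to 4 members in OA vs O and 2 in OAC vs OA. Over all genes these counts were 776 and 174 with the block, and 755 and 163 without it. The log2 fold change of Mmp9 in O vs A moved to 2.46. Of the 12 libraries, 7 correlated best with their own number.

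With 3 libraries a group and a common dispersion of 0.282, the fold changes of Mmp9 in O vs A, and of Adamts18 in O vs A and OA vs A, rest mostly on O1, O2 and OA3, 1 library each.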
